A study of Mus musculus with 24 samples.

Results

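Smooth muscle contractile genes were followed in mouse muscle stem cells and myoblasts with reduced RNA of the chromatin remodeller Chd4. The set was 10 genes, taken by gene symbol from 2 expression tables that each list 46078 genes: Acta2, Actg2, Tagln, Cald1, Cnn1, Myh11, Smtn, Myocd, Lmod1 and Mylk. All 10 were found in both tables. They were picked by name and not by a cut on their measured values, but earlier results of these data were known when the set was chosen.

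RNA-seq of total RNA was deposited as RPKM (reads scaled to gene length and to the reads of the library) for 16 libraries in 4 groups of 4, all from C57BL/6 mice aged 2 to 4 months. The cultures were satellite cell-derived primary myoblasts from uninjured muscle, carrying Chd4fl/fl alleles, kept in growth conditions and given an adenovirus for 72 hours that coded for GFP (AdGFP, the control) or Cre (AdCRE). The sorted cells were satellite cells taken 3 days after cardiotoxin injury from Chd4fl/fl mice (the control) or Chd4dPax7ER mice, by a gate that was SCA1-negative, CD45-negative, α7-integrin-positive and CD34-positive. The name Pax7ER stands in the case genotype alone, and no source used here gives whether the control mice carried Cre or were treated alike. In the cultures the control virus carried no Cre, so Cre itself and the loss of Chd4 cannot be told apart. Samples are numbered 1 to 4 in each group and are not said to be different animals or cultures. The p-values therefore reflect the spread among these libraries, which may be technical.

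Smooth muscle cells contract when calcium-activated myosin light chain kinase phosphorylates the light chain of a myosin that pulls on actin filaments. Many genes of this apparatus are switched on by serum response factor (SRF), which binds CArG boxes in promoters, with myocardin or the related MRTF proteins (Mkl1, Mkl2) as coactivators. Several of them are not restricted to smooth muscle: Acta2 and Tagln are also made by immature skeletal muscle cells, activated fibroblasts and pericytes, and Cald1 has a widely expressed non-muscle form. Myocd, Myh11, Cnn1 and Lmod1 are the more selective markers of smooth muscle.

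Because SRF sites tie these genes to their relatives, the RefSeq promoters (build GRCm38.p6, 250 bases before to 50 after the annotated start) were scanned for CArG boxes, here CC, 6 bases that are each A or T, and GG. The pattern reads the same on both strands. Promoters were found for 6 of the 10 genes: Acta2, Cald1, Cnn1, Smtn, Lmod1 and Mylk. Actg2, Tagln, Myh11 and Myocd had no entry. No member promoter held an exact box, which 1.63% of all 32851 promoters hold. Allowing 1 other base in the core, which 9.98% of promoters satisfy, gave 2 boxes in Acta2 and none in the other 5 genes. The E-box CAGCTG, a site of the MyoD family that is also its own reverse complement, was found once each in Acta2 and Lmod1, and in 16.3% of promoters. These are letter matches in a short window and not measured binding.

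The 2 boxes of Acta2 are printed below, 5′ to 3′ on the gene's strand with the box in capitals, beside those of 4 others, the 2 striated α-actins that vary with Acta2 and 2 contractile genes that rose in sorted cells. Acta2 is given at chr19:34255438-34255467 and chr19:34255388-34255417 (minus strand), where the boxes lie at positions -84 to -75 and -34 to -25 from the annotated start. Both stretches lie inside the annotated extent of the Acta2 gene. Actc1 is given at chr2:114052898-114053065 (minus), Acta1 at chr8:123894824-123894995 (minus), Cnn2 at chr10:79988529-79988568 (plus) and Myl9 at chr2:156775288-156775389 (plus).
Acta2, distal box: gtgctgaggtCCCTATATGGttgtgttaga
Acta2, proximal box: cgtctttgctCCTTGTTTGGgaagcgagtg
Actc1: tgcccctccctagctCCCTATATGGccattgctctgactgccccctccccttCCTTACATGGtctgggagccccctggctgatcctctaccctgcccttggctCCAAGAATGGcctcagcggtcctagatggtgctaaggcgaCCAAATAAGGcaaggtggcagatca
Acta1: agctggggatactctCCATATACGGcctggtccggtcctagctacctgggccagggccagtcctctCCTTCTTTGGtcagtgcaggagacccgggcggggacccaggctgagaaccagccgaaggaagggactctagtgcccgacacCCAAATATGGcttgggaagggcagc
Cnn2: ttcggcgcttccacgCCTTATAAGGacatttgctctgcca
Myl9: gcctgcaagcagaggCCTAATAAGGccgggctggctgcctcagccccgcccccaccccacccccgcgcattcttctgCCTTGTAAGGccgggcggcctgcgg
The distal Acta2 box and the most distal Actc1 box are the same 10 letters, CCCTATATGG. Actc1, Acta1, Cnn2 and Myl9 each hold 1 exact box, and Actc1 has 3, Acta1 2 and Myl9 1 with an altered core base. Exact boxes were also found in Srf (2), Vcl (1) and Actg1 (1). Of the genes with an exact box, Acta1, Cnn2 and Myl9 rose in sorted cells, Srf and Vcl fell, and Actc1 and Actg1 did not pass. Among scanned genes without one, Des rose, Cald1 and Myh9 fell, and Acta2, Smtn, Mylk, Cnn3 and Tagln2 did not pass. Cnn2 and Myl9 are shown because they rose, and a link between boxes and changes was not tested.

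Chd4 itself was checked first. It was at 15.8 to 23.9 RPKM in AdCRE against 67.8 to 85.5 in AdGFP, and at 48.7 to 64.1 in Chd4dPax7ER against 119 to 135 in Chd4fl/fl, so every library fell on the side its label gives. Chd4 RNA was lower but not absent in both case groups, and Chd4 loss here means that reduction. RPKM values summed to 288659 to 326812 per library in vitro and 286802 to 306114 in vivo. The number of reads is unknown, but in vitro the lowest values are whole multiples of what 1 read is worth, which gives a relative depth from 1 (AdGFP replicate 2) to 1.64 (AdGFP replicate 4). Satellite cell markers were present in both tables, with Pax7 at 29.9 to 37.1 RPKM in AdGFP and 14.2 to 29.0 in Chd4fl/fl.

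In control cells the contractile genes split into a few that were abundant and many that were near 0, as the plot of all members by library shows. In AdGFP myoblasts Acta2, smooth muscle α-actin, was at 566 ± 178 RPKM (SD, n = 4), higher than 99.9% of the genes above 0. Cald1, the actin-binding caldesmon, followed at 86.5 ± 6.28. Tagln, the actin cross-linker transgelin (SM22α), was at 27.4 ± 18.7 and Smtn, the actin-associated smoothelin, at 13.7 ± 2.43, and the ranges of these 2 overlapped. The other 6 genes were all under 0.5 RPKM in every AdGFP library. Actg2, enteric smooth muscle γ-actin, averaged 0.245 RPKM, Lmod1, the actin-nucleating leiomodin, 0.187 and Mylk, smooth muscle myosin light chain kinase, 0.184, with overlapping ranges. Myocd (myocardin), Myh11 (smooth muscle myosin heavy chain) and Cnn1 (calponin 1) averaged 0.0358, 0.0295 and 0.00952 RPKM.

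Sorted Chd4fl/fl cells showed the same leading pair. Acta2 was at 189 ± 60.4 RPKM, higher than 99.1% of the genes above 0 in that table, and Cald1 at 47.5 ± 6.91. Smtn (8.89 ± 1.58) and Tagln (8.01 ± 2.1) came next with overlapping ranges, and Mylk (1.59 ± 0.346) lay below both. Myh11, at 0.540 ± 0.349 RPKM, overlapped with Actg2 (0.357 ± 0.349), Actg2 with Lmod1 (0.152 ± 0.169), Lmod1 with Myocd (0.0800 ± 0.115) and Myocd with Cnn1 (0.0525 ± 0.105). The 2 tables were made separately, so levels were not compared between them. The actin genes have closely similar coding sequences, and no source used here gives how reads matching several of them were counted, so levels of single actins are less certain than those of other members.

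**Figure D1:**
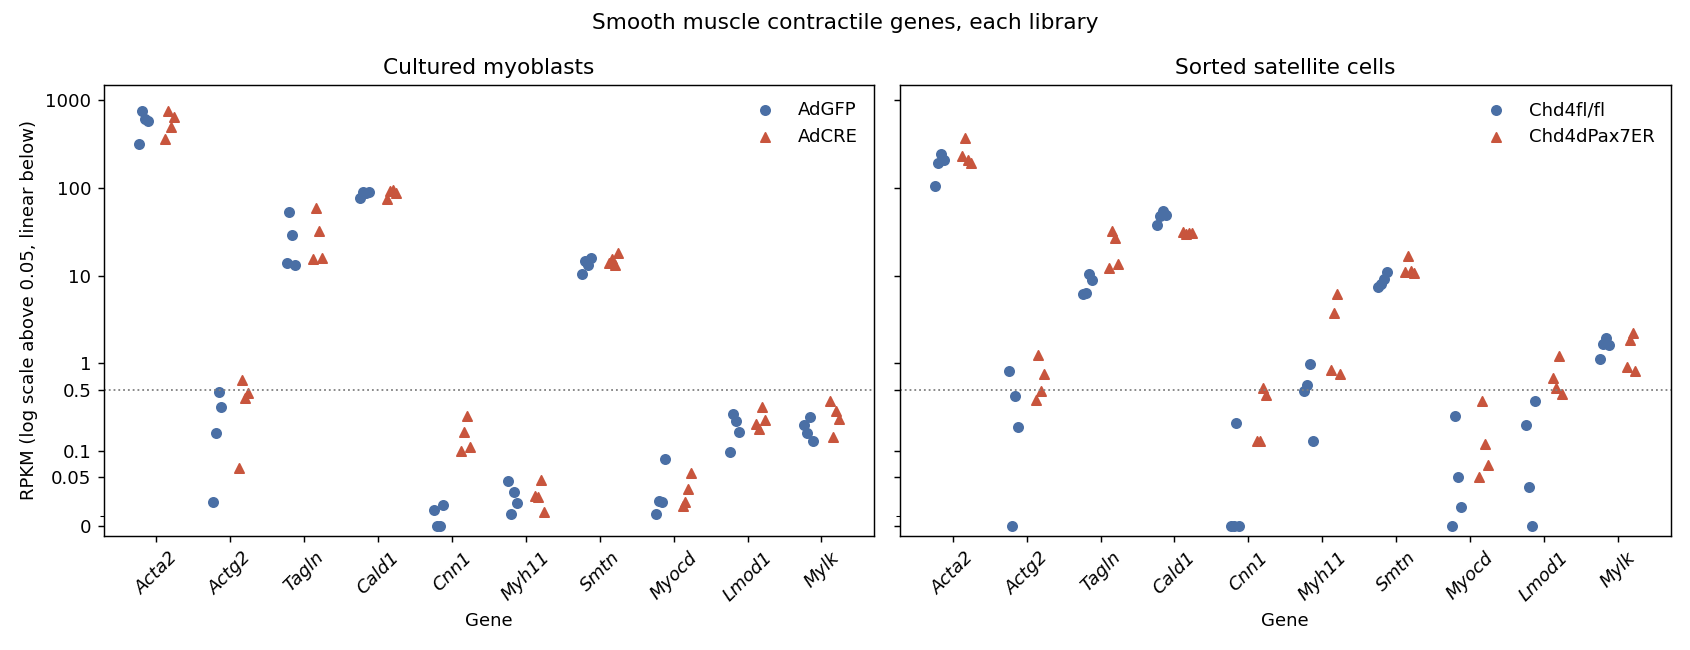
RPKM of the 10 smooth muscle contractile genes in each library (circles, control; triangles, case; 4 libraries a group) in cultured myoblasts and in sorted satellite cells, on an axis that is logarithmic above 0.05 and linear below. Acta2 and Cald1 have the highest means in all 4 groups, though Tagln (32.4) is above Cald1 (29.8) in Chd4dPax7ER replicate 2, and in sorted cells the Tagln triangles lie above the circles while the Cald1 triangles lie below. The dotted line is 0.5 RPKM, the level used for testing.

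In the cultures, no abundant contractile gene differed between AdCRE and AdGFP beyond the spread within the groups, and Tagln differed by a small amount once same-numbered cultures were paired. Tests ran on log2(RPKM + 0.5) with limma over all genes at 0.5 RPKM or more in at least 4 of the 8 libraries, and a gene passed at a Benjamini-Hochberg adjusted p under 0.05. Differences below are case minus control on that scale, which understates changes of low genes, with limma's standard error (SE). Of the 10 genes, 4 could be tested (Acta2, Tagln, Cald1 and Smtn) and 0 passed, beside 0.656% of all 13567 genes tested. The median difference of the 4 was 0.08, against -0.01 over all genes. At an unadjusted limma p under 0.05 the count of the 4 was also 0, and the lowest adjusted p was 0.688.

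Acta2 was at 322, 750, 607 and 586 RPKM in AdGFP replicates 1 to 4 and at 359, 763, 495 and 642 in AdCRE replicates 1 to 4. The groups covered the same range, and replicate 1 was lowest and replicate 2 highest in each. The difference was 0.00 (SE 0.31, adjusted p = 0.997). Cald1 was at 77.2, 89.3, 88.6 and 90.9 RPKM against 74.7, 93.1, 94.3 and 88.9, with replicate 1 again lowest in both groups. Its difference was 0.02 (SE 0.10, adjusted p = 0.961).

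Smtn was at 10.4, 14.8, 13.4 and 16 RPKM in AdGFP and 13.8, 15.5, 13.2 and 18.4 in AdCRE. The values overlapped, and 3 of 4 AdCRE libraries lay above the AdGFP library of the same number. The difference was 0.15 (SE 0.15, adjusted p = 0.688, or 0.126 with the replicate number in the fit).

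Of the 4 tested genes, Tagln varied most between cultures relative to its mean. It was at 13.8, 53.1, 29.4 and 13.3 RPKM in AdGFP replicates 1 to 4 and at 15.5, 59.6, 32.6 and 15.9 in AdCRE. Each AdCRE library was slightly above the AdGFP library of its own number, while the groups as a whole overlapped almost fully. The difference was 0.18 (SE 0.56, adjusted p = 0.92). Same-numbered cultures deviated together over all genes (correlations of 0.711 to 0.856), and with the replicate number as a block the same difference had an SE of 0.04 and an adjusted p of 0.0104. Leaving out each pair kept it at 0.16 to 0.19 (adjusted p from 0.0268 to 0.0448). With the block 36.2% of all genes passed, so 1 of 4 contractile genes passing is near the share over all genes. An exact permutation test within the pairs gave p = 0.125, the smallest that 4 pairs allow.

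**Figure D2:**
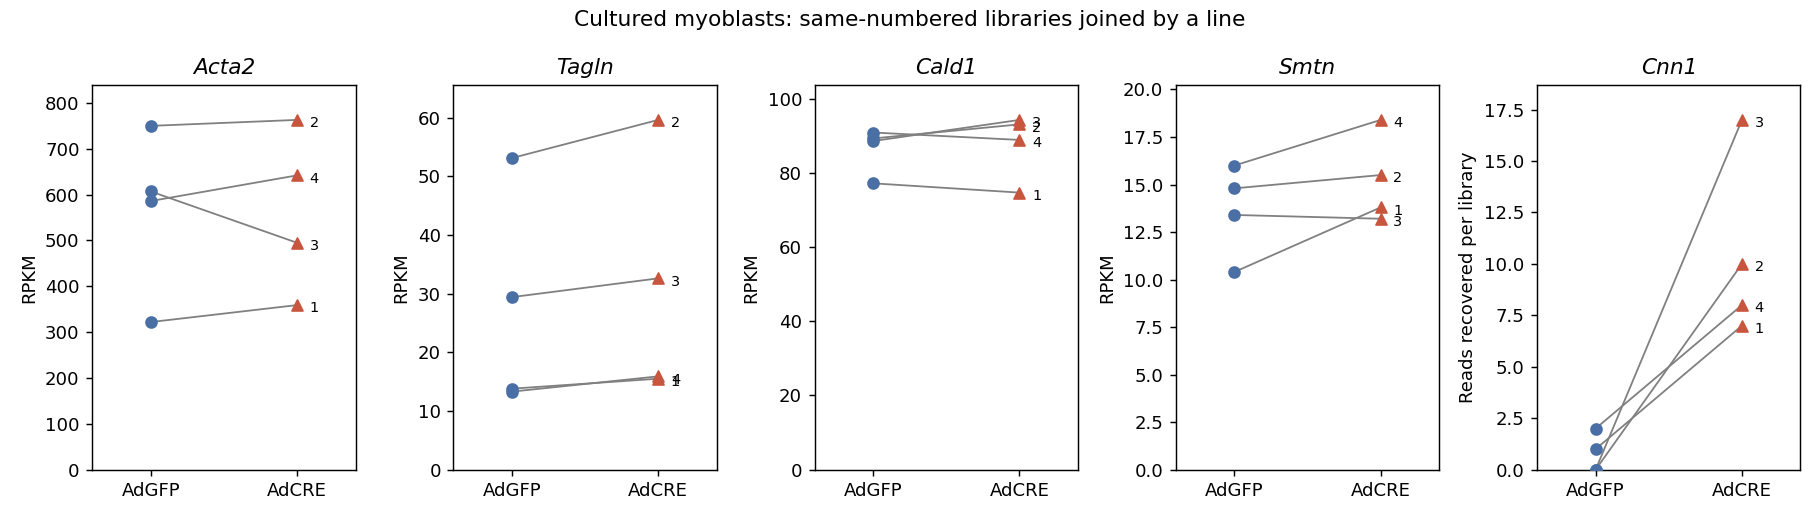
Values in cultured myoblasts, with a line joining the AdGFP (circle) and AdCRE (triangle) library of the same replicate number, which is printed at the right. The vertical axes give RPKM for Acta2, Tagln, Cald1 and Smtn and recovered reads per library for Cnn1. All 4 Tagln lines rise a little from very different levels, and the 4 Cnn1 lines rise from 0 to 2 reads to 7 to 17.

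Cnn1 was the member whose culture groups did not overlap, at very low levels. Calponin 1 binds actin and tropomyosin and restrains the myosin ATPase. Reads recovered from the steps of the RPKM values (whole to within 0.001) numbered 1, 0, 0 and 2 in AdGFP replicates 1 to 4 and 7, 10, 17 and 8 in AdCRE. These are the smallest whole numbers that fit the steps, and a common multiple of them is possible. All 4 AdCRE libraries were above all AdGFP libraries, 42 reads against 3 in all, a ratio of 14 per unit of depth with an exact 95% interval of 4.46 to 70.5 that covers counting error only. The exact two-sided permutation test on log values gave p = 0.0286, the smallest that 4 against 4 allow, and 0.125 within the pairs. Groups without overlap were found for 6.74% of the 27532 genes above 0 in any library, and for 1 of the 10 members. The gene lay under the level needed for the main test. With no filter on low values, limma gave Cnn1 an adjusted p of 0.115, and 0.0406 when the block was added too.

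The 5 remaining low genes overlapped between AdGFP and AdCRE. Mylk had 52, 39, 64 and 51 reads against 113, 37, 82 and 72, a pooled ratio per depth of 1.47 (95% counting interval 1.23 to 1.77). Its AdCRE replicate 2, at 0.143 RPKM, lay within the AdGFP range of 0.129 to 0.247, and the exact test over samples gave p = 0.229. Actg2 had 1, 6, 19 and 19 reads against 3, 26, 18 and 22, and replicate 1 was lowest in both groups (exact p = 0.4). Lmod1 had 82 reads in all against 105 (exact p = 0.343), Myocd 30 against 26 (exact p = 0.971) and Myh11 22 against 23 (exact p = 0.886). For none of these 5 genes was a difference found over the samples.

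In sorted satellite cells, Chd4 loss went with a rise of Tagln and a fall of Cald1. Of the 10 genes, 6 passed the filter and were tested: 1 rose, 1 fell and 4 (Acta2, Smtn, Myh11 and Mylk) did not pass. Over all 13344 genes tested 26.6% passed, 14.7% higher and 11.9% lower, so 2 of 6 is near the share of all genes. The median difference of the 6 was 0.43, against -0.02 over all genes. The groups did not overlap for 3 of the 10 genes (Tagln, Cald1 and Lmod1), beside 19.4% of the 22767 genes above 0 in any library. In bulk RNA from sorted cells, more cells of a kind and more RNA per cell cannot be told apart.

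Tagln was at 6.17, 6.38, 10.5 and 8.97 RPKM in Chd4fl/fl replicates 1 to 4 and at 12.4, 32.4, 26.9 and 13.7 in Chd4dPax7ER. All 4 Chd4dPax7ER libraries were above every control, and replicates 2 and 3 were far above replicates 1 and 4. The means were 21.3 ± 9.85 against 8.01 ± 2.1 RPKM, a difference of 1.27 (SE 0.31, adjusted p = 0.0166). Leaving out each library in turn left it between 1.04 and 1.49 (adjusted p from 0.01 to 0.0467). The Tagln gene (ENSMUSG00000032085, chr9:45929628-45936058, GRCm38.p6) overlaps Pcsk7, a protease gene, in RefSeq. Pcsk7 was at 7.02 to 9.69 RPKM in controls and 8.04 to 11.3 in Chd4dPax7ER, a difference of 0.20 (SE 0.14, adjusted p = 0.323).

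Cald1 was at 38.0, 48.2, 54.4 and 49.4 RPKM in Chd4fl/fl and at 31.6, 29.8, 30.4 and 31.1 in Chd4dPax7ER. The 4 Chd4dPax7ER libraries lay within 2 RPKM of each other and all below the lowest control. Means were 30.7 ± 0.779 against 47.5 ± 6.91 RPKM, a difference of -0.61 (SE 0.10, adjusted p = 0.00313), and every library left out in turn kept the call (adjusted p from 0.000714 to 0.0121). The Cald1 gene (ENSMUSG00000029761, chr6:34598495-34775469, GRCm38.p6) overlaps 2 long non-coding RNA genes in RefSeq, and no source used here gives whether reads were counted by strand. Gene-level values do not separate the smooth muscle form of caldesmon from the non-muscle form.

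Acta2 was at 105, 194, 247 and 211 RPKM in Chd4fl/fl and 230, 370, 207 and 194 in Chd4dPax7ER. Chd4fl/fl replicate 1 was lowest, Chd4dPax7ER replicate 2 highest, and the rest overlapped. The difference was 0.42 (SE 0.28, adjusted p = 0.294). Smtn was at 7.46, 7.95, 9.14 and 11 RPKM against 11.1, 16.7, 11.2 and 10.6. Only Chd4fl/fl replicate 4 reached into the Chd4dPax7ER range, and the difference was 0.45 (SE 0.17, adjusted p = 0.077). Leaving out each library in turn gave adjusted p from 0.0496 to 0.175, under 0.05 only without Chd4fl/fl replicate 4.

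Myh11 was at 0.48, 0.57, 0.98 and 0.13 RPKM in Chd4fl/fl and at 0.84, 3.77, 6.24 and 0.76 in Chd4dPax7ER. Replicates 2 and 3 of Chd4dPax7ER stood above everything else, and replicates 1 and 4 lay within the control range. The difference was 1.41 (SE 0.55, adjusted p = 0.0874). Leaving out each library in turn gave adjusted p from 0.0474 to 0.192, under 0.05 only without Chd4dPax7ER replicate 4. Mylk was at 1.12, 1.68, 1.95 and 1.60 RPKM against 0.90, 1.86, 2.22 and 0.82, where the same replicates 2 and 3 were the higher ones. Its difference was -0.15 (SE 0.27, adjusted p = 0.714).

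The remaining genes were too low for the main test in sorted cells. Lmod1 was at 0.20, 0.04, 0 and 0.37 RPKM in Chd4fl/fl and 0.68, 0.53, 1.21 and 0.45 in Chd4dPax7ER, with no overlap (exact permutation p = 0.0286, the smallest possible). Cnn1 was at 0, 0, 0.21 and 0 RPKM against 0.13, 0.13, 0.52 and 0.44, so 3 controls were listed at 0 and all Chd4dPax7ER libraries held some (exact p = 0.0857). Actg2 was at 0.81, 0, 0.43 and 0.19 RPKM against 0.38, 1.24, 0.49 and 0.76 (exact p = 0.229). Myocd, the coactivator that drives the smooth muscle program, was at 0, 0.25, 0.05 and 0.02 against 0.05, 0.37, 0.12 and 0.07 (exact p = 0.486). Values of Actg2 and Myocd overlapped, and Chd4dPax7ER replicate 2 was highest for both.

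The change of Cald1 differed between the settings. Over the 11941 genes tested in both tables, 5.01% differed, and 1 of the 4 members tested in both did so. The in vivo change of Cald1 minus its in vitro change was -0.63 (SE 0.14, adjusted p = 0.0164). For Tagln this difference was 1.09 (SE 0.64, adjusted p = 0.374, and 0.0257 with the block in the in vitro fit). For Acta2 it was 0.42 (adjusted p = 0.644) and for Smtn 0.30 (adjusted p = 0.524).

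Close relatives of the members, the skeletal, cardiac and non-muscle forms of the same protein families, were examined as a list of 18. In sorted cells 14 were tested, of which 4 rose, 2 fell and 8 did not pass, with a median of 0.10. Over all genes tested there, 14.7% were higher and 11.9% lower. Mylk2, the skeletal muscle light chain kinase, rose from 1.23, 1.93, 2.54 and 3.38 RPKM to 14.9, 19.1, 13.7 and 9.90, with every Chd4dPax7ER library above every control (2.45, SE 0.26, adjusted p = 0.000364). Acta1, skeletal α-actin, was at 74.2, 143, 131 and 182 RPKM against 399, 852, 323 and 334 (1.79, SE 0.34, adjusted p = 0.00559).

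Among calponins, Cnn2, a widely expressed form, was at 8.79, 9.32, 15.4 and 12.3 RPKM in Chd4fl/fl and 22.2, 25.4, 22.7 and 33.6 in Chd4dPax7ER, without overlap (1.16, SE 0.19, adjusted p = 0.00267). Cnn3 was at 140 ± 13.6 against 137 ± 10.7 RPKM (-0.02, adjusted p = 0.881). Lmod2, a striated muscle leiomodin, was at 6.39 to 11.3 RPKM against 13.7 to 39.5 (1.15, SE 0.32, adjusted p = 0.028). The non-muscle genes Myh9, a myosin heavy chain, and Actb, β-actin, fell by 0.48 (adjusted p = 0.00764) and by 0.34 (adjusted p = 0.0433). Actc1, cardiac α-actin, was at 134 ± 36.4 against 164 ± 81.8 RPKM (0.22, adjusted p = 0.656), and Tagln2, a non-muscle transgelin, at 201 ± 21.6 against 189 ± 35.1 (-0.11, adjusted p = 0.626).

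In cultures 15 relatives were tested and 1 passed, beside 0.656% of all genes, or 36.2% with the block. Mylk2 was at 2.85, 3.02, 2.69 and 2.69 RPKM in AdGFP and at 7.53, 6.25, 5.34 and 5.31 in AdCRE, again without overlap (0.98, SE 0.12, adjusted p = 0.0168). With the block 7 rose and 3 fell, and those called in addition included Acta1 (0.33, block adjusted p = 0.0339) and Actc1 (0.32, 0.0129) higher and Tagln2 (-0.35, 0.00189) and Myh10 (-0.61, 0.00265), a non-muscle myosin heavy chain, lower.

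**Figure D3:**
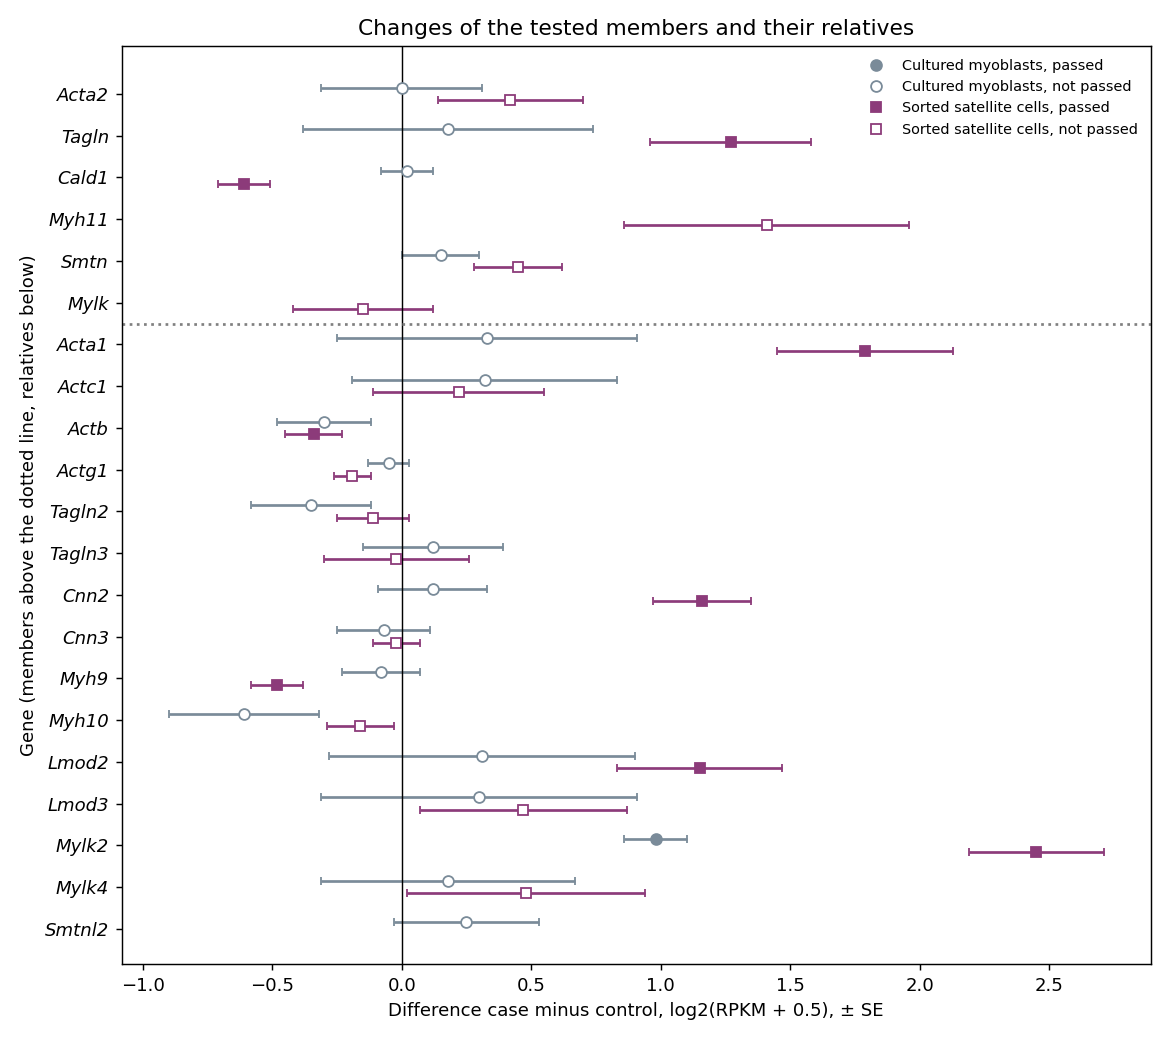
Difference between case and control on the log2(RPKM + 0.5) scale, with its standard error, for the tested members (above the dotted line) and their relatives (below), in cultured myoblasts (circles) and sorted cells (squares). Filled symbols passed at an adjusted p under 0.05. In sorted cells Tagln, Acta1, Cnn2, Lmod2 and Mylk2 are filled to the right of 0 and Cald1, Actb and Myh9 to the left, while in cultures Mylk2 alone is filled.

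The share of Acta2 among the muscle α-actins was lower after Chd4 loss in sorted cells. Acta2 made up 40.4, 40.1, 46.1 and 38.7% of the summed RPKM of Acta1, Acta2 and Actc1 in Chd4fl/fl and 29.7, 24.6, 31.2 and 31.1% in Chd4dPax7ER. The groups did not overlap (41.3 ± 3.27 against 29.2 ± 3.12%, exact permutation p = 0.0286, the smallest possible). Acta1, which rose while Acta2 did not pass, is in the denominator of that share. In cultures the share was 38.0, 24.8, 23.9 and 33.2% in AdGFP and 34.8, 21.6, 19.9 and 26.4% in AdCRE, lower in each of the 4 pairs but overlapping between groups (exact p = 0.343, and 0.125 within pairs, the smallest possible).

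Of 7 SRF regulators 6 were tested in sorted cells, and 0 rose, 2 fell and 4 did not pass limma (at an unadjusted p under 0.05, 0 were higher and 3 lower), which is near the 26.6% called over all genes. Srf was at 11.3, 11.6, 12.3 and 13.4 RPKM in Chd4fl/fl and 8.67, 9.74, 8.57 and 10.1 in Chd4dPax7ER, without overlap (-0.37, SE 0.09, adjusted p = 0.0191). Elk4, an ETS-family partner of SRF, was at 21.7 to 24.9 RPKM against 15.1 to 18.2 (-0.53, SE 0.08, adjusted p = 0.00231). In cultures 0 of 6 passed limma, also 0 at an unadjusted p under 0.05, and with the block Srf (-0.30, adjusted p = 0.0124) and Mkl1 (-0.22, 0.0172) were lower and Klf4 (0.29, 0.00421) higher.

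Genes that control or anchor the contractile apparatus moved in both directions in sorted cells. Of 38 listed genes 32 were tested, and 10 rose, 7 fell and 15 did not pass, with a median of 0.06. Over all genes tested, 14.7% were higher and 11.9% lower. The largest rise was that of Myl9, the regulatory light chain that myosin light chain kinase phosphorylates. Myl9 was at 8.69, 15.4, 18.9 and 12.8 RPKM in Chd4fl/fl and at 41.6, 62.1, 54.1 and 58.2 in Chd4dPax7ER, every one of these far above the controls (1.95, SE 0.22, adjusted p = 0.000414).

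The adhesion plaque protein gene Pgm5 rose from 18.9 ± 2.84 to 52.0 ± 20.4 RPKM (1.38, adjusted p = 0.00251). Synpo2, an actin-bundling protein of Z-discs and dense bodies, rose from 3.36 ± 0.834 to 8.68 ± 4.38 (1.18, adjusted p = 0.0156). Des, the muscle intermediate filament desmin, rose from 197 ± 32.6 to 398 ± 86.1 (1.00, adjusted p = 0.00246), and Tpm2, β-tropomyosin, from 128 ± 18.3 to 214 ± 80.2 (0.69, adjusted p = 0.0466). Synpo2, Des and Tpm2 are also genes of skeletal muscle fibres. Vcl, the actin anchor vinculin, fell from 103, 111, 119 and 117 RPKM to 69.6, 73.7, 67.9 and 67.2 (-0.69, SE 0.07, adjusted p = 0.00022). Of the other genes that fell, 2 were singled out after their values were seen. Tpm1, α-tropomyosin, was at 123 to 150 RPKM against 75.9 to 101 (-0.64, adjusted p = 0.00181), and Rock2, a kinase that restrains light chain phosphatase, at 90.1 to 105 against 61.8 to 66.2 (-0.57, adjusted p = 0.000418).

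**Figure D4:**
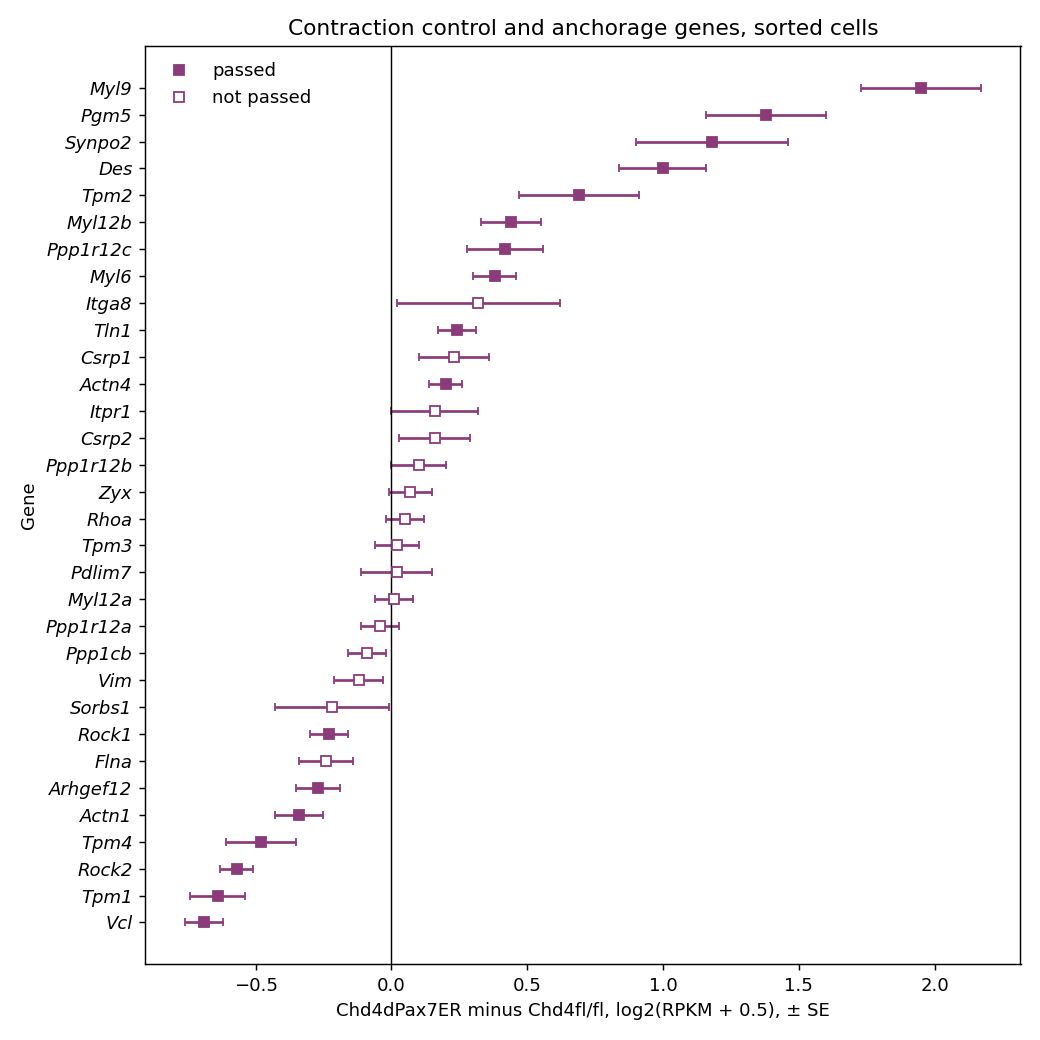
Difference between Chd4dPax7ER and Chd4fl/fl sorted cells on the log2(RPKM + 0.5) scale, with its standard error, for the 32 tested genes of contraction control and anchorage, in order of size. Filled squares passed at an adjusted p under 0.05. Myl9, at 1.95, is farthest to the right, and Vcl, at -0.69, farthest to the left.

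Kcnmb1 and Ppp1r14a, singled out after their values were seen, are typical of differentiated smooth muscle and were low. Kcnmb1, the smooth muscle β-subunit of the BK potassium channel, was listed at 0 in every culture library and reached at most 0.08 RPKM in sorted cells. Ppp1r14a, the light chain phosphatase inhibitor CPI-17, was listed at 0 in all 4 Chd4fl/fl libraries and at 1.41, 1.68, 0.58 and 0 RPKM in Chd4dPax7ER (exact p = 0.143). In cultures 0 of 32 tested genes of the list passed limma, 2 at an unadjusted p under 0.05, and with the block 5 rose and 7 fell, near the 36.2% called over all genes, with Myl9 (0.34, block adjusted p = 0.0167) higher and Tpm4 (-0.29, 0.00294) and Flna (-0.27, 0.00328) lower.

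Of 8 genes known to be induced by TGF-β or SRF signalling, all were tested in sorted cells, and 3 rose, 0 fell and 5 did not pass, with a median of 0.14. Over all genes tested, 14.7% were higher and 11.9% lower. The 3 were Fhl1, a LIM protein of muscle (32.2 ± 3.96 to 63.6 ± 15.6 RPKM, 0.95, adjusted p = 0.00273), Tgfb1i1, the adhesion protein Hic-5 (3.71 ± 0.530 to 6.35 ± 0.330, 0.71, adjusted p = 0.00326), and Ankrd1 (73.2 ± 10.0 to 121 ± 40.9, 0.68, adjusted p = 0.0403). Ctgf, at 17.1 ± 11.4 against 13.9 ± 5.24 RPKM, did not pass (-0.19, adjusted p = 0.758). In cultures 0 of 8 passed limma, also 0 at an unadjusted p under 0.05, and with the block 2 were higher and 3 lower, Cyr61 (-0.61, block adjusted p = 0.000677) among the latter. With the block 36.2% of all genes passed.

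Some markers of mural cells, the pericytes and vascular smooth muscle cells around vessels, were highest in the same sorted libraries as Tagln and Myh11. Rgs5, a pericyte marker, was at 3.06, 1.5, 4.84 and 1.26 RPKM in Chd4fl/fl and 3.79, 17.7, 16.9 and 4.77 in Chd4dPax7ER, highest in the same replicates 2 and 3 (1.69, SE 0.54, adjusted p = 0.0472). Pdgfrb, the pericyte PDGF receptor, was at 0.75, 0.75, 1.22 and 0.56 RPKM against 1.04, 2.63, 3.22 and 1.14, with the same replicates highest (0.84, adjusted p = 0.0813). Of the 8 mural markers, 6 were tested and 4 rose (Mcam by 2.72, Rgs5, Abcc9 by 1.64 and Cspg4 by 1.43), beside 14.7% of all genes tested. Notch3, the most abundant of the 8 in controls, was at 11.2, 14.4, 18 and 15.2 RPKM against 12.4, 13.2, 18.8 and 15.9, with replicates 3 and 4 of Chd4dPax7ER the higher ones (0.04, adjusted p = 0.89). The summed level of the 8 was 26.3 to 37.4 RPKM in Chd4fl/fl and 70.5 to 122 in Chd4dPax7ER. Most of that rise was Mcam, at 8.33 ± 1.65 RPKM in Chd4fl/fl and 57.7 ± 11.9 in Chd4dPax7ER, so the sum does not describe the 8 markers evenly. Higd1b was listed at 0 in all 4 controls and in Chd4dPax7ER replicate 4, and Kcnj8 at 0 in Chd4fl/fl replicate 4 and Chd4dPax7ER replicate 1. Within the Chd4dPax7ER group, Mcam, Cspg4, Abcc9 and Kcnj8 were also highest in replicates 2 and 3. Higd1b was highest in replicate 2 and level in replicates 1 and 3. Being highest in replicates 2 and 3 of the Chd4dPax7ER group was not particular to mural markers. The fibroblast markers Dcn, Lum, Dpt, Col3a1, Pdgfra and Mfap5 showed it, and Postn and Ly6a did not. Of the leukocyte markers, Cd68, Adgre1, Csf1r and Laptm5 showed it, and Ptprc and Tyrobp did not.

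Without Chd4dPax7ER replicates 2 and 3, a choice made after seeing the data, Tagln differed by 0.70 (adjusted p = 0.0735) and no longer passed, and Myh11 differed by 0.39 (adjusted p = 0.502). Those libraries are also the 2 highest for Tagln and Myh11, so leaving them out lowers both differences by construction, and 2 Chd4dPax7ER libraries remain. Cald1 still fell, by 0.58 (adjusted p = 0.0313). In those that remained, Tagln was at 12.4 and 13.7 RPKM, above the highest control at 10.5. Tagln and Rgs5 deviated from their group means together over the 8 sorted libraries (Pearson r = 0.818) and in opposite directions over the 8 cultures (r = -0.811). Same-numbered cultures vary together, and Chd4dPax7ER replicates 2 and 3 were high for both genes, so these 2 correlations only describe. In cultures Rgs5 was at 46.4 to 104 RPKM in AdGFP and 176 to 403 in AdCRE (2.06, adjusted p = 0.0309), the 1 mural marker of 5 tested to pass there. With the block 4 of the 5 were higher, among them Mcam (1.16, block adjusted p = 5.89e-05) and Notch3 (0.97, 0.000118), while Myh11 was under 0.05 RPKM in every culture library. Over all genes in cultures 0.656% passed, and 36.2% with the block.

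**Figure D5:**
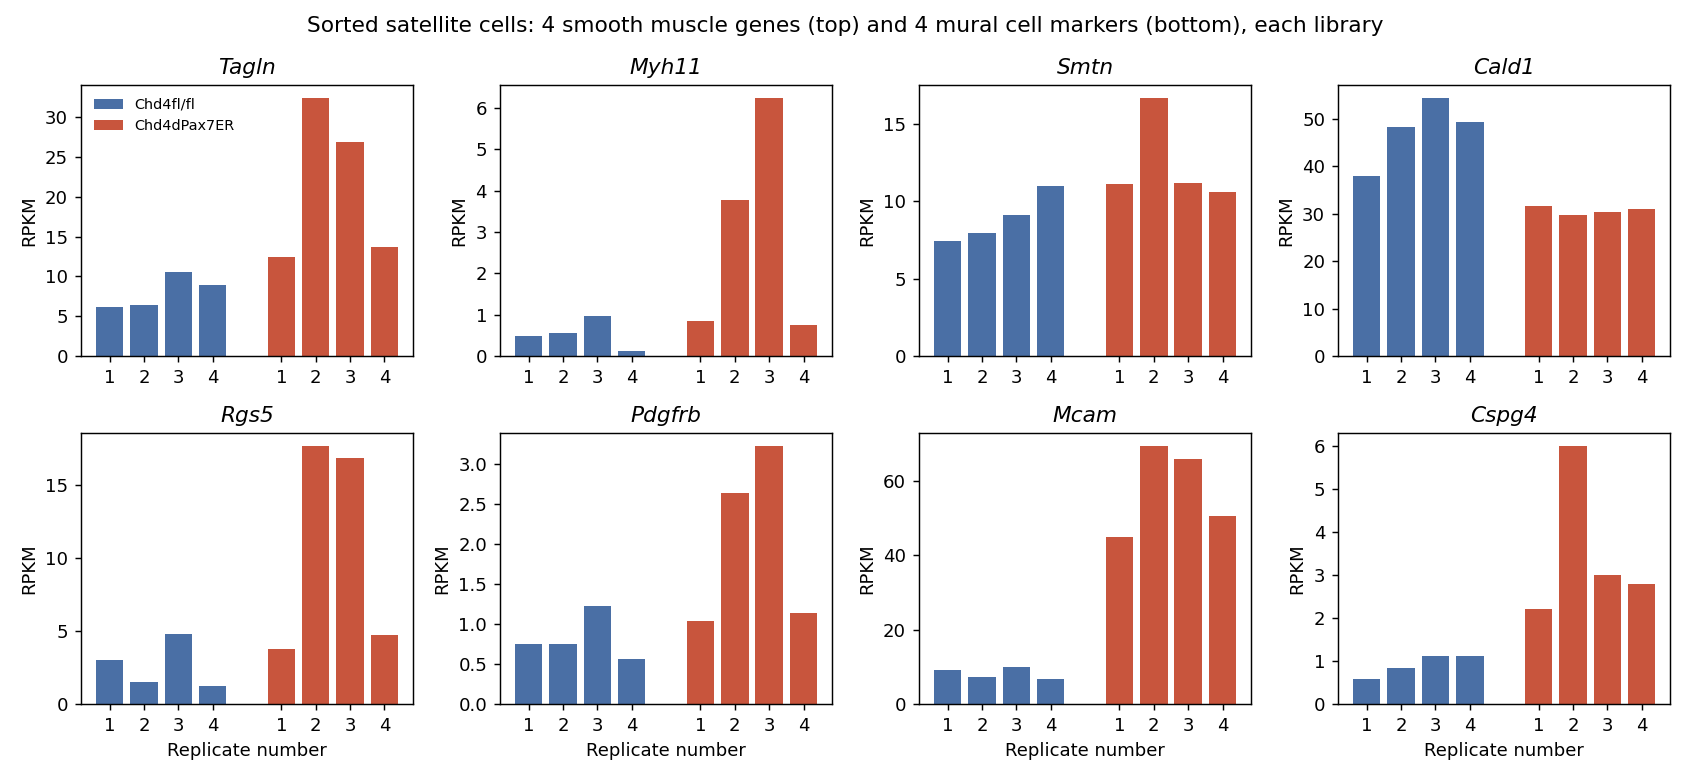
RPKM in each sorted library (bars, replicates 1 to 4 of Chd4fl/fl and of Chd4dPax7ER) for Tagln, Myh11, Smtn and Cald1 (top) and for the mural cell markers Rgs5, Pdgfrb, Mcam and Cspg4 (bottom). Within the Chd4dPax7ER group, replicates 2 and 3 are the highest for every gene shown except Cald1. For Smtn, replicate 3 (11.2) is barely above replicate 1 (11.1). Cald1 is even at 29.8 to 31.6 over the 4 Chd4dPax7ER libraries.

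Some markers of other cells also differed between the sorted groups, where 14.7% of all genes tested were higher and 11.9% lower. Of 8 fibroblast markers, all tested, 3 rose (Lum by 4.14, Dcn by 3.23 and Dpt by 1.32). Ly6a (0.77), Pdgfra (0.40), Col3a1 (0.22), Mfap5 (0.18) and Postn (-0.03) did not pass. The summed level of the 8 was 93.4 to 130 RPKM in Chd4fl/fl and 217 to 378 in Chd4dPax7ER. Most of that rise was Dcn (mean 10.9 to 109 RPKM) and Lum (1.96 to 43.9). Of 6 leukocyte markers 5 were tested and 1, Laptm5, rose, with sums of 20.3 to 29.9 against 23.8 to 51.1. None of the 6 endothelial markers reached the level for testing, and their sums were 0.33 to 2.05 against 0.45 to 1.58, with Emcn and Tie1 under 0.1 in every library. Muscle differentiation markers, 9 of 10 of which rose, summed to 533 to 1007 against 1813 to 4073. The largest rises among them were Casq1 (3.45), Tnnc2 (3.36), Myh8 (2.89), Tnnt1 (2.23), Mymk (1.52) and Tnnt3 (1.35), and Myh3 (0.82) did not pass. Of the 8 satellite cell markers, all tested, 3 rose (Myod1 by 1.00, Des by 1.00 and Itga7 by 0.36), 1 fell (Pax7, by 0.85, adjusted p = 0.0301) and 4 did not pass. In cultures 2 fibroblast markers were tested and 1, Ly6a, passed (2.13, adjusted p = 0.0113). Ly6a was at 1.69 to 4.01 RPKM in AdGFP against 9.79 to 15.6 in AdCRE. Of 2 leukocyte markers tested there 0 passed. With the block both were higher, Laptm5 (1.62, block adjusted p = 0.000134) and Cd68 (0.81, 0.0007). Over all genes in cultures 0.656% passed, and 36.2% with the block. The part of these cell types, and of differentiation, in the changes of Tagln, Cald1 and Myl9 was not tested.

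The genes most like Acta2 and Tagln were found by correlating deviations from the group mean over the 8 libraries of each table, for the 11941 genes tested in both, and ranking by the lower of the 2 correlations. Libraries share depth and preparation across all genes, so these values only describe. For Acta2 the 5 nearest were Pla2g16, a phospholipase gene (r = 0.976 in vitro and 0.949 in vivo), Actc1 (0.987 and 0.937), Ralgps2 (0.933 and 0.977), Palm2 (0.934 and 0.929) and Bcam (0.934 and 0.924). Acta1 followed Acta2 at 0.903 and 0.901, and Tagln followed it at 0.675 and 0.629. For Tagln the 5 nearest were Arhgef6 (0.960 and 0.966), Rftn1 (0.940 and 0.962), Igfbp7, a secreted binding protein of growth factors (0.975 and 0.939), Il6st, the shared receptor subunit gp130 (0.965 and 0.931), and Mttp (0.931 and 0.906). Cald1 followed Tagln at 0.565 in vitro and 0.226 in vivo.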

How the data were processed

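The authors deposited 1 RPKM table for the cultures and 1 for the sorted cells, the latter rounded to 2 decimals. Per the submitters' processing notes, tools named for the series include HISAT2 2.1.0 and cutadapt 1.18. No source used here gives which of them made the tables, or the counting program. Each table was fitted separately with limma 3.58.1 (R 4.3.3, variance trend) on log2(RPKM + 0.5), for genes at 0.5 RPKM or more in at least 4 of 8 libraries, with Benjamini-Hochberg adjustment over all genes tested. The test was checked on simulated data. Exact permutation tests used 70 arrangements, or 16 within pairs. Changes in the 2 settings were compared through their difference and combined standard errors. Replicate numbers pair the cultures (correlations of deviations 0.711 to 0.856, from the data and not the labels) but not the sorted cells (-0.0967 to 0.0499).

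The members and lists were chosen with earlier results of these data known. All members are named. From other lists, genes that passed are named, up to 6 a list and setting by size, any relative may be named, and 5 genes are given as most like Acta2 and Tagln. Further genes (those called with the block, Kcnmb1, Ppp1r14a, Ctgf, Tpm1, Rock2, Pcsk7, Pdgfrb, Higd1b, Kcnj8, Emcn and Tie1) were singled out after their values were seen. The 8 ATAC-seq samples were not analysed here.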

Additional observations from a re-analysis of the deposited data

Results flagged for a closer look

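In groups of 4, a library was singled out where its gap to the nearest other library took up most of the group's range, which chance does in about 1 in 20 groups, and 40 groups were looked at. Cald1 was lowest in AdGFP replicate 1, at 77.2 RPKM against 88.6 to 90.9 in the other AdGFP libraries. Cnn1 was highest in Chd4fl/fl replicate 3, at 0.21 RPKM, where the other 3 controls were listed at 0. With those 3 at the floor the gap is the whole range by construction, so the rate of 1 in 20 does not apply to Cnn1. Smtn was highest in Chd4dPax7ER replicate 2, at 16.7 RPKM against 10.6 to 11.2 in the others. Cald1 also stood out because its change in sorted cells minus its change in cultures was -0.63 on the log2 scale (SE 0.14, limma-based adjusted p = 0.0164).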

How the results depend on the processing

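The alternatives were other pseudocounts, filters and scalings, no variance trend, the replicate block and leaving out each library. Scaling moved the median of all genes by under 0.1. Of 38 recomputed counts of members called, 33 stayed within 1.5 times of the reported count. Many of these were counts of 0 in cultures that stayed 0, and others were counts of 2 in sorted cells that became 3. In cultures the count of 0 became 1 with the replicate block (Tagln) and 2 with the block and no filter (Tagln and Cnn1). In sorted cells the count of 2 became 1 (Cald1) with the block and no filter, and 1 without Chd4dPax7ER replicates 2 and 3. It became 3 with the block or without Chd4dPax7ER replicate 4 (Myh11 added), and without Chd4fl/fl replicate 4 (Smtn added). The 1 member that differed between settings became 2 with the block in the in vitro fit, where the share over all genes went from 5.01% to 16.6%. In sorted cells, where the numbers do not pair the samples, the block gave Myh11 an adjusted p of 0.0306, and without the filter it called Cald1 alone.

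Differences near 0 in cultures changed sign. Acta2 went to -0.0211 with TPM scaling and -0.0594 with quantile scaling, and ranged from -0.25 to 0.20 as single libraries were left out. Cald1 went to -0.0081 and -0.0030, and ranged from -0.0361 to 0.0924. Tagln ranged from -0.20 to 0.57 without single libraries. In sorted cells Mylk ranged from -0.34 to 0.0101. None of these differences passed the test without the block. With RPKM and no read numbers in vivo, counting error of the low genes is unknown there.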
